A study of Drosophila melanogaster with 3 samples.

Results

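Binding of Pipsqueak (Psq) was described at 10 segmentation genes that Polycomb proteins are known to repress: slp1 and slp2, drm, sob and odd, en and inv, eve, and gsb and gsb-n. These 10 of 13945 protein-coding genes lie in 5 loci, and a locus was taken as the span of each gene with 10 kb added on each side. The members were named from a list of genes, which was chosen with earlier results of these data known. The files carry no histone mark and no Polycomb protein, so repression itself was not examined here.

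The study is a chromatin immunoprecipitation experiment (ChIP-seq) with 1 group of 3 biological replicates of Drosophila melanogaster. Each replicate came from whole larvae of the third instar, at the wandering stage and with both sexes pooled, of a transgenic line that stably carries psq fused at its C-terminal end to GFP, with the insertion directed at psq. Chromatin was sonicated and recovered with an antibody against GFP, and fragment sizes ran from 200 to 300 bp (replicate 1), 175 to 275 bp (replicate 2) and 175 to 250 bp (replicate 3). Since the larva is taken whole, each value averages over cells that express a given gene and cells that silence it, and a site used in few cells cannot be told apart from one that is weakly occupied in many.

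Psq is a nuclear protein of the BTB family that binds GA-rich DNA, as the GAGA factor does, and it has long been studied together with Polycomb silencing. Segmentation genes divide the early embryo into repeated stripes. Later, Polycomb complexes are drawn to DNA stretches called Polycomb response elements (PREs), often close to promoters, and keep these genes off in cells outside the stripes and their descendants. Words recognised by the GAGA factor and Psq and by Pho, a DNA-binding Polycomb protein, recur in such elements.

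The authors' list of reproducible peaks on all replicates together, called the optimal list, held 10138 peaks, of which 10105 lay on the 6 chromosome arms. The lists of single replicates held 28037, 28294 and 24291 peaks in replicates 1, 2 and 3, with background included. For each replicate its 10138 highest-scoring peaks were kept as its strong list. The relative score expresses a replicate's peak score in units of the strong list's median score, so that 1 stands for a typical strong peak. Scores are the authors' own values per peak, read depth is unknown, and the absence of a peak is only the absence of a call.

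Psq summits at the promoters of slp2, drm, sob and odd are shown by their DNA, because they carry the binding described below and most of them hold the GA word GAGAG. The sequences are 5′ to 3′ on the plus strand of dm6 chromosome arm 2L, from RefSeq, and GAGAG or its reverse complement CTCTC is in capitals. Apart from the odd sequence, each runs 100 bp to both sides of the summit. The stretch at odd stops before the transcribed part of the gene. The first drm sequence, from its strongest summit, holds 3 GA words, and the second, from a weaker drm summit, holds none and is shown as a contrast with its runs of CA.
drm, 463 bp downstream of its second TSS (chr2L:3540096-3540296): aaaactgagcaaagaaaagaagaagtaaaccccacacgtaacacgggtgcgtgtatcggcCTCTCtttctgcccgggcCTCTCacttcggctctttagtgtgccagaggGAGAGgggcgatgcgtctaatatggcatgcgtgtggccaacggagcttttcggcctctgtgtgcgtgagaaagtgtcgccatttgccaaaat
drm, 114 bp upstream of its second TSS (chr2L:3539519-3539719): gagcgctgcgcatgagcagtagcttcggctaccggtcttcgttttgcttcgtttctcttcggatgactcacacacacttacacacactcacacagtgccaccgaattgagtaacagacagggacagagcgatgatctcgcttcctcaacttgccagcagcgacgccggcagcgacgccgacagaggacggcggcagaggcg
sob, 303 bp upstream of its TSS (chr2L:3580972-3581172): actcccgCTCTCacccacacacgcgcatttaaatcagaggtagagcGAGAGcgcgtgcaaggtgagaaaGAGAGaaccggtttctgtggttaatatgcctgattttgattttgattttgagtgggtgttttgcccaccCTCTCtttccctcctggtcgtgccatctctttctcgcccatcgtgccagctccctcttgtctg
odd, 50 bp upstream of its TSS (chr2L:3606757-3606906): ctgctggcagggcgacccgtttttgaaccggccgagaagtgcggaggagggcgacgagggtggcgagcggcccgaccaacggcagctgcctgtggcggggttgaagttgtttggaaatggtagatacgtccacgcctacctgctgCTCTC
slp2, 118 bp upstream of its TSS (chr2L:3836622-3836822): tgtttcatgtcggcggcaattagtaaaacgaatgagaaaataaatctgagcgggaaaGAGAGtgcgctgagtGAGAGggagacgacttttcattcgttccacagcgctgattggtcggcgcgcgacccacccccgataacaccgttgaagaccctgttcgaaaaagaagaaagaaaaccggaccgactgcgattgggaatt

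Of the 10 genes, 8 had an optimal summit within 1000 bp of an annotated transcription start site (TSS), against 28.7% of all protein-coding genes. The exceptions were slp1 and eve. By the strong list of a single replicate, 6 genes had such a summit in replicate 1 (29.5% of all genes), 7 in replicate 2 (29.7%) and 8 in replicate 3 (28.3%). All 10 genes had an optimal summit in their span with 10 kb on each side, as did 62.1% of all genes. The count of 8 came down to 7, 5 and 4 when a peak had to be strong in both other replicates, leaving out replicate 1, 2 and 3 in turn, and the same rule left 21.9%, 21.1% and 21.7% of all genes.

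The windows of the 10 genes covered 247.462 kb and held 30 optimal summits. That is 121 per Mb, against 75.5 per Mb over the chromosome arms. The strong lists of the replicates held 27, 28 and 20 summits in the same windows, or 101 ± 17.6 per Mb (SD, n = 3), against 75.5 ± 0.0114 per Mb over the arms, a number that the equal length of the strong lists fixes. This excess in density was made of lower-scoring peaks, while 6 of the 10 genes had a higher-scoring summit within 1000 bp of a TSS, against 18.4% of all genes. Only 9 of the 30 scored above the median of the whole list, the median score was 145 against 181 for all summits, and among the higher-scoring peaks of the list the density in the windows was 36.4 per Mb against 37.6 per Mb over the arms.

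**Figure D1:**
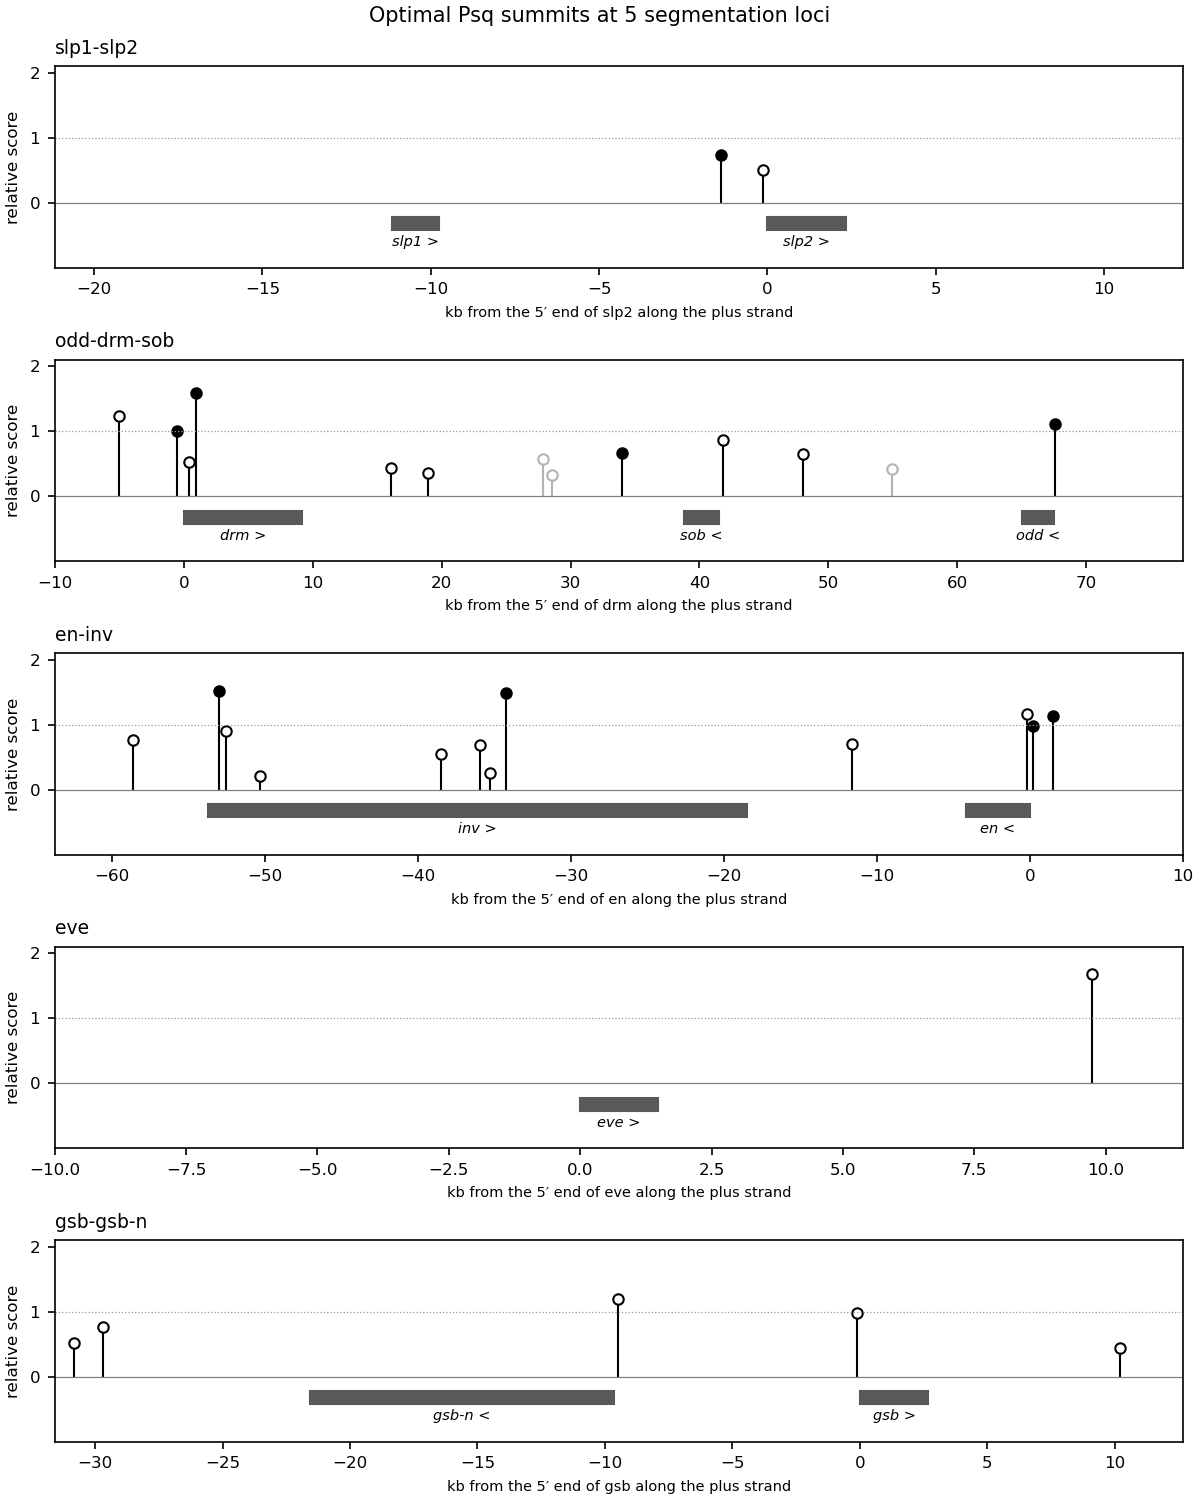
Map of the optimal Psq summits at the 5 loci. The x axis gives kb from the 5′ end of 1 gene of each locus along the plus strand, the y axis the relative score as a mean over the replicates with a match, and grey bars the genes with their direction. Filled circles were strong in all 3 replicates and open ones in fewer, and the 3 summits drawn in grey lie in the gaps between the windows of drm, sob and odd. Summits crowd at the starts of drm, inv and en, while slp1 and eve have none at their starts.

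The slp1 and slp2 genes encode paired forkhead transcription factors that act in pair-rule patterning and later keep wg expressed. Their highest relative score was the lowest among the 5 loci. The locus held 2 optimal summits, and both were at slp2 (FBgn0004567, dm6 2L:3836840-3839185, plus strand). At the slp2 promoter the summit 118 bp upstream of the TSS (peak 2L:3836666-3836767, intergenic DNA next to the first exon) had relative scores of 0.235, 0.664 and 0.630 in replicates 1, 2 and 3. The value in replicate 1 was the low one, and the mean was 0.510 ± 0.239 (SD, n = 3). A second summit 1392 bp upstream (2L:3835316-3835579, intergenic) had 0.929, 0.492 and 0.768, or 0.730 ± 0.221 (SD, n = 3), and was strong in all 3 replicates. Each of the pair had 2 GAGAG within 100 bp.

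No optimal summit lay near the TSS of slp1 (FBgn0003430, 2L:3825675-3827099, plus strand). The nearest was the one 9773 bp downstream that lies before slp2. In replicate 1 alone the strong list had a summit 124 bp upstream of the slp1 TSS, with a relative score of 0.675. Replicates 2 and 3 had no summit there even in their full lists, the nearest being 5940 and 3454 bp downstream with relative scores of 0.112 and 0.0797. The slp1 promoter was thus called in 1 of 3 replicates.

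The odd-skipped family genes drm, sob and odd encode zinc finger proteins that act in leg joint formation and, for drm, in shaping the gut. Their windows held 10 optimal summits, and the start of drm (FBgn0024244, 2L:3539247-3548423, plus strand, 2 TSSs) had the steadiest of those matched in all 3 replicates. This summit, 463 bp downstream of the second TSS and inside the gene (2L:3540086-3540278), had relative scores of 1.65, 1.60 and 1.54, or 1.59 ± 0.0552 (SD, n = 3). Its score of 319 was the highest of the 30 summits and ranked 2250 in the optimal list.

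Around it, drm had a pair of weaker sites near its TSSs that differed between replicates. A summit 539 bp upstream of the first TSS (2L:3538576-3538839) had 0.658, 1.05 and 1.31, or 1.005 ± 0.326 (SD, n = 3). The summit between the TSSs, 114 bp upstream of the second one (2L:3539487-3539750), had 0.777, 0.641 and 0.177, or 0.532 ± 0.315 (SD, n = 3). Replicate 3 was the highest at the first of these and the lowest at the second. A further peak called on all replicates together lay 104 bp upstream of a drm TSS but scored 84.6, below the 90.3 at which the optimal list ends.

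Farther from drm the peaks were less reproducible. A summit 5047 bp upstream (2L:3534082-3534367), nearest to the TSS of the intraflagellar transport gene IFT57, had 1.70 in replicate 1 and 0.772 in replicate 2. Replicate 3 had no match there, and its own strong summit in this stretch lay 4810 bp upstream of drm at 1.00. Downstream of drm, the summits at 15565 and 18467 bp, nearest to lncRNA:CR44309, averaged 0.433 in 1 replicate and 0.361 ± 0.195 over 3 (SD).

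At sob (FBgn0004892, 2L:3578013-3580769, minus strand) the promoter summit lay 303 bp upstream of the TSS (2L:3580984-3581128). Its relative scores were 0.792, 0.380 and 1.44, or 0.870 ± 0.533 (SD, n = 3), and the replicates did not share a level. The window of sob also held a summit 7507 bp downstream of the TSS, nearest to lncRNA:CR43822, at 0.666 ± 0.244 (SD, n = 3), which was strong in all 3 replicates. The third summit lay at the promoter of lncRNA:TS2, 6492 bp upstream of sob, with 0.453 and 0.860 in replicates 1 and 2 and no match in replicate 3.

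The window of odd (FBgn0002985, 2L:3604224-3606756, minus strand) held 1 optimal summit, at its promoter. It lay 50 bp upstream of the TSS (2L:3606741-3606886), with relative scores of 0.678, 1.53 and 1.11, or 1.11 ± 0.427 (SD, n = 3), and was strong in all 3 replicates. It is the only one of the 30 summits with the word of the early activator Zelda, CAGGTAG, which reads CTACCTG near the end of the sequence shown, next to its GA word. In the gaps between the windows of drm, sob and odd lay 3 more optimal peaks with scores of 119, 116 and 100, which were not counted.

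The en and inv genes encode homeodomain proteins of the posterior compartment of each segment, lie tail to tail and share regulatory DNA, and PREs are known at the starts of both. With 12 optimal summits in 73.746 kb (163 per Mb) this locus had the highest density of the 5 in the optimal list, and all 12 were nearest to a TSS of en or inv. In the strong lists of the replicates its density was 118 ± 15.7 per Mb, against 134 ± 40.3 per Mb at odd-drm-sob (SD, n = 3 each), and the permissive list held 40 summits against 49, so the order of these loci turned with the list. At en (FBgn0000577, 2R:11524006-11528210, minus strand, 2 TSSs) 3 summits lay side by side at the start of the gene.

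The outer en promoter summit, 161 bp upstream of the first TSS (2R:11528301-11528478), had relative scores of 0.914, 0.830 and 1.21, or 0.986 ± 0.201 (SD, n = 3). The summit 1480 bp upstream of it (2R:11529586-11529730, intergenic) had 1.58, 1.11 and 0.694, or 1.13 ± 0.445 (SD, n = 3). Both were strong in all 3 replicates, with opposite orders of replicates 1 and 3. The inner summit, 131 bp upstream of the second TSS and inside the gene (2R:11527927-11528068), had 0.766 and 1.56 in replicates 1 and 2, with no match in replicate 3. Together the 3 summits had 15 GAGAG within 100 bp. Of the 2 summits with GAGAGAGA, the one 1480 bp upstream of en was 1, with a GA run of 9 bp.

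At inv (FBgn0001269, 2R:11474465-11509695, plus strand, 2 TSSs) a pair of summits lay at the start as well. The stronger, 479 bp upstream of the second TSS (2R:11475084-11475377), had relative scores of 1.78, 1.42 and 1.38, or 1.52 ± 0.219 (SD, n = 3). It had no GAGAG and a single GTGTGTGT, and it was the second highest of the 30 by score, at 285. The other, 76 bp upstream of that TSS (2R:11475537-11475674), had 0.408, 1.10 and 1.21, or 0.907 ± 0.435 (SD, n = 3), and its 9 GAGAG were the most at any of the 30 summits. The summit without the GA word was thus the higher of the pair in each replicate.

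The introns of inv held 5 more optimal summits that lie over 500 bp from any TSS, and no other of the 10 genes had an intronic summit beyond that distance. The 1 that stood out lay 18262 bp downstream of the second TSS (2R:11493937-11494091), with 1.50, 1.94 and 1.04, or 1.49 ± 0.449 (SD, n = 3), strong in all 3 replicates. Its 4 intronic neighbours, at 2145, 13969, 16576 and 17187 bp, averaged from 0.208 to 0.695 and none of them was strong in all 3 replicates. Upstream of inv a summit at 4866 bp (2R:11469531-11469633) had 1.13, 0.303 and 0.867. Between the tails of both genes lay 1 summit, 11345 bp downstream of an en TSS (2R:11516468-11516547), with 0.917 and 0.506 in replicates 2 and 3 and no match in replicate 1.

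At eve (FBgn0000606, 2R:9979319-9980795, plus strand), which encodes a homeodomain repressor of the pair-rule class, no optimal summit lay at the gene. The single optimal summit of its window lay 9750 bp downstream (2R:9988989-9989168), 90 bp upstream of a TSS of TER94, which encodes an AAA ATPase, and inside lncRNA:CR45324. A PRE is known between eve and TER94. This summit had relative scores of 1.71 and 1.65 in replicates 1 and 2, or 1.68 ± 0.0390 (SD, n = 2), and no match within 200 bp in replicate 3. It had no GAGAG and 1 GCCAT within 100 bp.

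Around eve itself the peaks called on all replicates together came no nearer than 8612 bp upstream of the TSS, with a score of 40.5. The strong lists of replicates 1 and 2 had a summit 6421 and 6447 bp upstream, with relative scores of 0.606 and 0.887, that is not in the optimal list. Replicate 3 had no strong summit in the whole window. In the full list of replicate 1 a weak summit lay 72 bp upstream of the eve TSS, at 0.199. Replicate 3 thus differed at eve, with 0 strong summits in the window where replicates 1 and 2 had 3 each.

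The gsb and gsb-n genes encode Pax-type factors with a paired domain and a homeodomain, which act in the segment border and the nervous system, and lie head to head. Each had 1 optimal summit close to its TSS, and both were low or without a call in replicate 1. At gsb-n (FBgn0001147, 2R:25040383-25052331, minus strand) the summit 144 bp upstream (2R:25052377-25052523) had relative scores of 0.133, 1.18 and 2.29, or 1.20 ± 1.08 (SD, n = 3), the widest spread of the 30. At gsb (FBgn0001148, 2R:25061964-25064643, plus strand) the summit 100 bp upstream (2R:25061836-25061931) had 0.691 and 1.29 in replicates 2 and 3, or 0.989 ± 0.421 (SD, n = 2), and no match in replicate 1. At both promoters replicate 3 was the highest and replicate 1 the lowest or without a call. The cause of the difference was not tested.

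The rest of the gsb windows belonged to neighbours. A summit 85 bp upstream of a TSS of Nplp1, a neuropeptide precursor gene, had a match in replicate 1 only, at 0.769. A summit in the 3′ UTR of uzip averaged 0.515 ± 0.343 (SD, n = 2). The third, 10221 bp downstream of gsb and nearest to the gene tRNA:Ala-CGC-1-1, had 0.438 in replicate 2 only and was strong in no replicate.

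**Figure D2:**
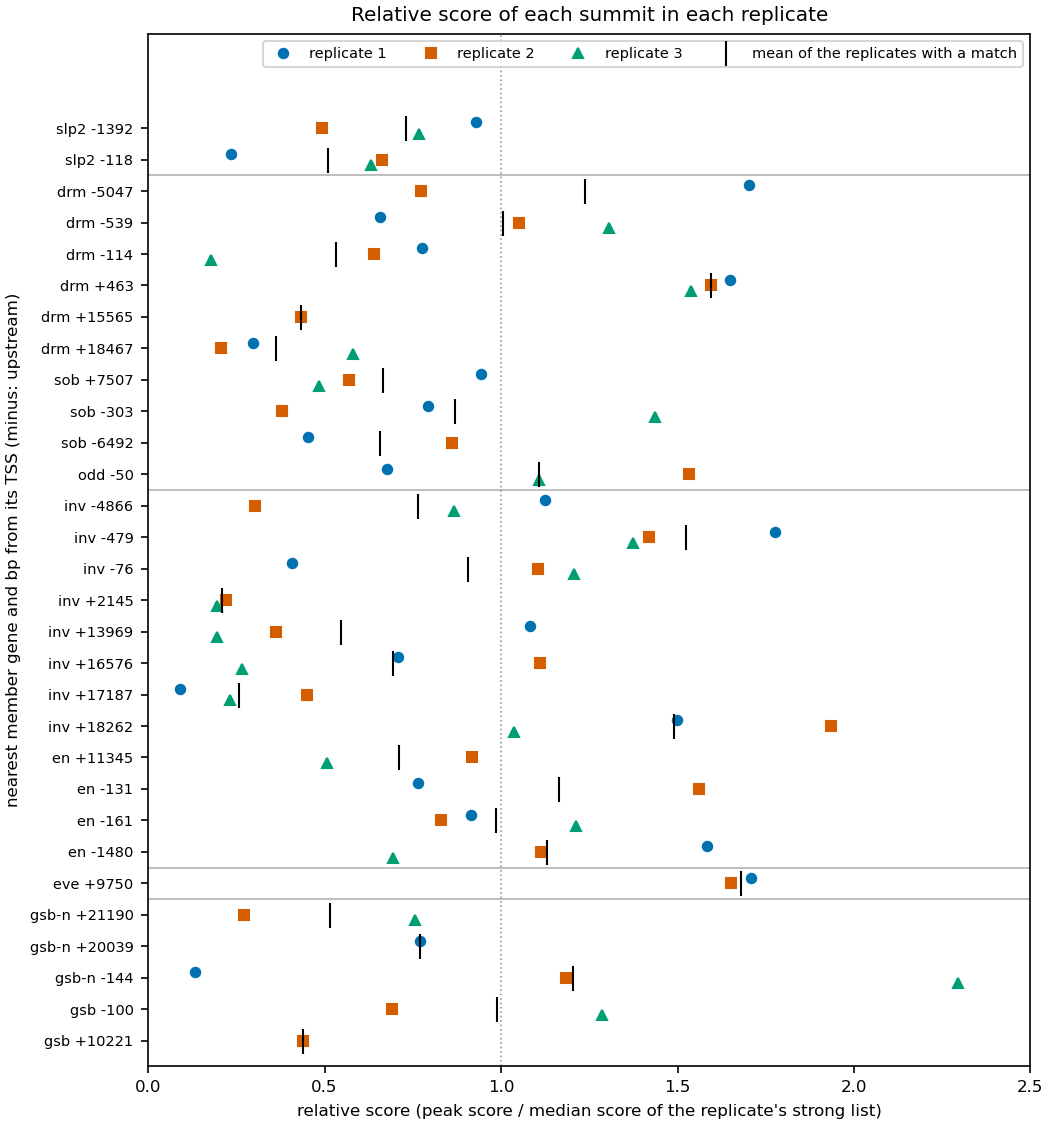
Relative score of each of the 30 optimal summits (x axis) in replicate 1 (circles), replicate 2 (squares) and replicate 3 (triangles), with a vertical tick at the mean. Rows name the nearest of the 10 genes and the distance from its TSS in bp, and the dotted line marks the median strong peak. The 3 values at drm +463 lie between 1.54 and 1.65, while those at gsb-n −144 run between 0.133 and 2.29.

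Set in order by the summit within 1000 bp of a TSS that scored highest in the optimal list, drm came first with a mean relative score of 1.59, then inv (1.52), gsb-n (1.20), odd (1.11), gsb (0.989), en (0.986), sob (0.870) and slp2 (0.510). The mean of gsb covers replicates 2 and 3 only, since replicate 1 had no match there. By score in the optimal list en, at 253, was above gsb, at 195. For every pair of neighbours in this order the ranges over the replicates overlapped. The range of drm, 1.54 to 1.65, lay above those of odd, gsb, en, sob and slp2, the nearest of which reached 1.53 at odd. The place of en depends on which of its promoter summits is taken, since the inner one averaged 1.16 over 2 replicates, above odd, and reached 1.56 in replicate 2, within the range of drm. The median of these means over the 8 genes was 1.05, close to the typical strong peak, and no mean was above 1.59. Single replicates went higher, up to 2.29 at gsb-n in replicate 3.

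Between loci the highest relative score averaged 1.70 ± 0.289 at en-inv, 1.61 ± 0.0832 at odd-drm-sob, 1.42 ± 0.788 at gsb-gsb-n and 0.787 ± 0.134 at slp1-slp2 (SD, n = 3 each), and 1.68 at eve over the 2 replicates with a match. The values of replicates 1, 2 and 3 were 1.78, 1.94 and 1.38 at en-inv, 1.70, 1.60 and 1.54 at odd-drm-sob and 0.929, 0.664 and 0.768 at slp1-slp2. At each locus with 3 values the summit that gave the highest value differed between replicates. The mean and SD thus do not describe the spread of 1 site. In replicate 1 the value at odd-drm-sob came from the summit nearest to IFT57. The replicate 1 value at gsb-gsb-n, 0.769, came from the summit at the Nplp1 promoter. The highest value was taken over 12 optimal summits at en-inv and 10 at odd-drm-sob, but over only 2 at slp1-slp2. A locus with more summits has more chances of a high value, and no allowance was made for this. En-inv and odd-drm-sob were each above slp1-slp2 in 3 of 3 replicates with no overlap, by 0.909 ± 0.337 and 0.825 ± 0.0933 (SD of the paired differences, n = 3). The 2-sided exact sign-flip permutation p was 0.25 for each, the smallest that 3 replicates allow, and 0.75 after Benjamini-Hochberg adjustment over the 6 pairs of loci with 3 values. For the other 4 pairs the ranges overlapped, with exact p of 0.5 or 0.75 and an adjusted p of 0.75. No pair passed, and the design could not have let one pass.

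The summits were less reproducible than the list as a whole. Of the 30, 9 were strong in all 3 replicates, 12 in exactly 2, 5 in 1 and 4 in none. Strong in all 3 were thus 30% of them, against 58.3% of all summits and 44.4% of summits of the same score deciles. The median of the mean relative scores was 0.767, against 0.981 for all summits. A match within 200 bp was missing for 6 summits in replicate 1, for 1 in replicate 2 and for 7 in replicate 3. Replicate 1, the one with the longest fragments, lacked or had low values at the promoters of slp2, gsb and gsb-n and at inv −76. It was the highest of the replicates at drm +463 (1.65), inv −479 (1.78) and en −1480 (1.58). Replicate 3 lacked, among others, the matches at eve and inside en. Whether fragment length takes part in this was not tested.

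By the medians of matched summits, those near the TSSs of the 10 genes scored higher than the others in 2 of 3 replicates. The 12 within 1000 bp of such a TSS had a median of the mean relative scores of 0.997, against 0.680 for the other 18. Of the 12, 11 lay upstream of the nearest TSS, but those between the TSSs of drm, inv and en lie inside the gene. In replicate 2 the medians were 1.08 near and 0.492 far, and in replicate 3 they were 1.29 and 0.543. In replicate 1 the order was turned, with 0.766 near and 0.943 far. For all nuclear summits, split by distance to any TSS, each replicate had the higher median near (1.08 against 0.898, 1.09 against 0.885 and 1.12 against 0.902). Summits without a match are left out of these medians, 1, 0 and 1 near and 5, 1 and 6 far in replicates 1, 2 and 3. Among matched summits, replicate 1 thus differed from the whole list at these genes. By strong calls its order was not turned, with 8 of the 12 near summits and 10 of the 18 far ones strong in replicate 1.

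Long genes hold more summits, so each gene was set beside protein-coding genes of its own length decile. The window of inv held 9 optimal summits against a median of 3 in its decile, and 78.1% of genes of that decile had fewer. The window of drm held 6 against 2, with 79.1% below it. The windows of en and gsb-n held 4 against 2 (66.2% and 60.9% below), those of sob and gsb 3 against 1 (61.6% below each), and those of slp1 and slp2 2 against 1 (54.2% and 50.2% below). Odd and eve held 1 against 1, with 35.9% and 41.0% below. Counts were thus above the median of the decile at 8 of the 10 genes, as they were at 46% of all protein-coding genes, and apart from inv and drm no count was above that of more than 66.2% of its decile. The same summit can count for a pair of neighbours such as slp1 and slp2.

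**Figure D3:**
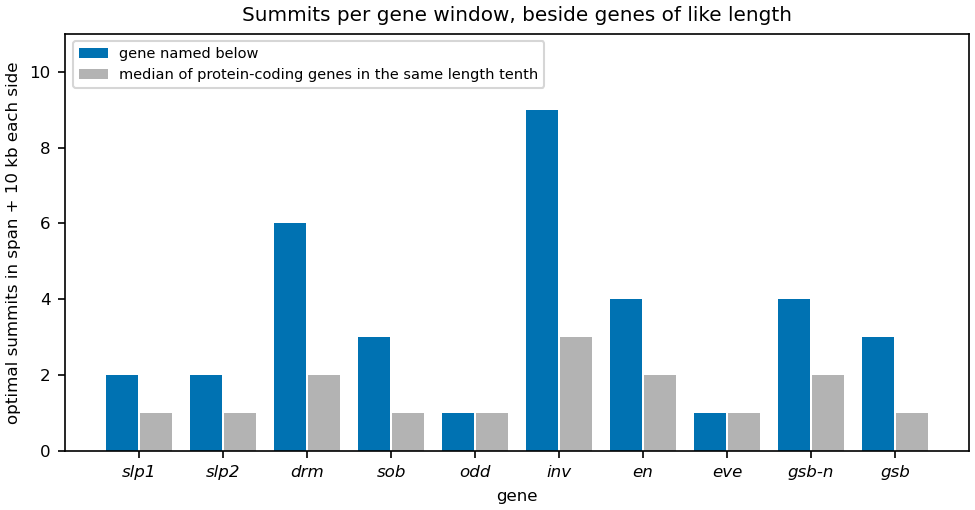
Optimal summits in the span of each of the 10 genes with 10 kb on each side (dark bars, left of each pair), beside the median of protein-coding genes in the same decile of gene length (light bars). The y axis counts summits from 0. The widest gap is at inv with 9 against 3, and odd and eve equal the median of 1.

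By place, 14 of the 30 (46.7%) were promoter summits, 500 bp or less from a TSS, compared with 44.1% of the whole list. Intergenic DNA held 10 (33.3%), against 13.0%, and introns 5 (16.7%), against 38.4%. The windows take in DNA between genes by construction, and their makeup was not set beside that of the genome. The last summit lay in a 3′ UTR (3.33% against 0.901%), and none lay in coding sequence, 5′ UTRs or other exons. Of the 30 summits 21 were nearest to a TSS of a member and 9 to one of another gene.

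The GA word GAGAG lay within 100 bp of 21 of the 30 summits (70%), against 45.3% of all summits, counted on either strand with overlaps allowed. Its 57 occurrences were spread over both sides, 30 before and 27 after the summit, with 34 of them within 50 bp. The share was 83.3% for the 12 summits near a member TSS and 61.1% for the other 18, against 46.6% and 43.6% for all summits near and far from a TSS. These splits are unlike, since all summits were split by any TSS. The 18 include summits at the promoters of lncRNA:TS2, TER94 and Nplp1. Long repeats were not more frequent, since GAGAGAGA was found at 2 summits (6.67%), inv −76 and en −1480, against 8.65% of all. Summits of the same score deciles had GAGAG in 41.0%.

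GCCAT, the core of the Pho word, lay at 15 summits (50%), against 32.2% of all. Of the others, GTGTGTGT lay at 5 (16.7% against 13.8%) and CAGGTAG at 1 (3.33% against 1.71%). The DNA within 100 bp of the member summits was also richer in G and C. Its median was 53.5%, with a range of 35.8% to 60.7%, against a median of 48.3% at all summits. Among the 22 member summits with 50% to 60% GC, 15 had GAGAG and 12 had GCCAT. Of the 3702 summits of the list in that range 52.4% had GAGAG and 35.8% had GCCAT. A word match is a description of the letters and shows no binding of Pho or of the GAGA factor.

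**Figure D4:**
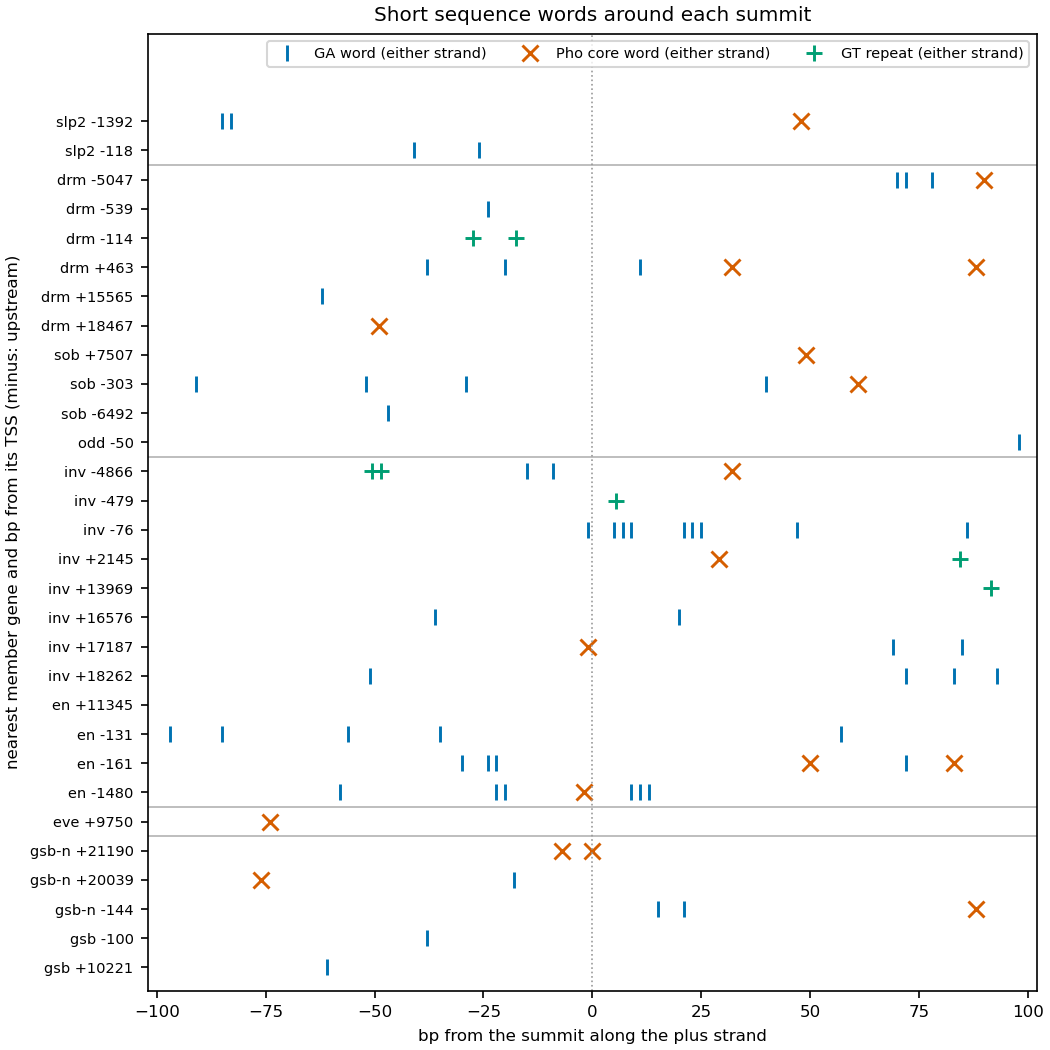
Places of short words around each of the 30 summits. The x axis gives bp from the summit along the plus strand, rows name the nearest of the 10 genes and the distance from its TSS in bp, ticks mark the GA word, crosses the Pho core word and plus signs the GT repeat. The GA word is densest at inv −76, with 9 places, and at en −1480, with 6, and it is missing at 9 of the 30 summits.

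Other segmentation genes, a list not sorted by whether Polycomb represses them, gave a mixed picture by class. Of 19 of them 10 (52.6%) had an optimal summit within 1000 bp of a TSS, against 28.7% of all protein-coding genes. In the span with 10 kb on each side 12 of the 19 had one, beside 62.1% of all protein-coding genes. The members had a median of 3 summits per gene, against 1 in this list and 1 for all protein-coding genes. A summit shared by neighbours counts for each of them. The median gene length was 2.72 kb for the members and 6.65 kb for this list. In the segment polarity class 6 of 7 were bound, with mean relative scores of 2.80 ± 0.917 at ptc, the Hedgehog receptor, 2.51 ± 0.464 at wg, a Wnt ligand, and 2.39 ± 0.815 at nkd, a Wnt inhibitor (SD, n = 3 each). The T-box gene mid had 1.59 ± 0.482, ci, the Gli-type effector of Hedgehog, 1.00 ± 0.452 at a summit nearest to asRNA:CR43957, and the ligand gene hh 0.714 ± 0.168 (SD, n = 3 each). Only H15 was not bound in this class. The means at ptc, wg and nkd were above the 1.59 of drm, the highest member, although nkd had 1.48 in replicate 2 and gsb-n had 2.29 in replicate 3.

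In the other classes 2 of 7 gap genes and 2 of 5 pair-rule genes were bound, against 28.7% of all protein-coding genes, and the difference between classes was not tested. Of the gap genes the adjacent kni and knrl, nuclear receptor family genes, had 0.528 ± 0.176 and 0.741 ± 0.433 (SD, n = 3 each), and hb, Kr, gt, tll and hkb had no summit near a TSS. Of the pair-rule genes hry, a bHLH repressor gene, had 2.19 ± 0.730 and opa, a Zic-type zinc finger gene, 0.722 ± 0.244 (SD, n = 3 each), and run, ftz and prd had none. The median over the bound genes was 1.05 for the members, 1.29 for the other segmentation genes and 0.965 for the 4 of 8 homeotic genes that were bound. The members are shorter, with a median length of 2.72 kb, against 30.6 kb for the homeotic genes, the best known Polycomb targets. Of the 8 homeotic genes 6 had a summit in the span with 10 kb on each side, beside 62.1% of all protein-coding genes. No test was made between these lists, which are short and differ in gene length.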

How the data were processed

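The samples are 3 biological replicates of 1 group. The authors called peaks in each replicate, and on all replicates together, against 1 control alignment that the replicates share, and thresholded the optimal list by irreproducible discovery rate, per the listing of files deposited by the authors. Each peak carries a score, the authors' deposited signal value, whose scale is not stated, and another value, the offset of the summit from the peak start, that the authors deposited. Which aligner and caller were used is not given in the sources used here, and depth is unknown. Signal tracks, the control and the dm3 lists were not analysed here.

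Summits (peak start plus offset, counted from 1) were placed on dm6 with Ensembl release 115 genes and RefSeq sequence, using Python 3.11.15, pandas 2.3.3, NumPy 2.4.6, SciPy 1.17.1 and matplotlib 3.10.9. All 10138 optimal peaks are the top of the 30000 peaks called on all replicates together, so support by the replicates is not independent of it. A match is the highest-scoring replicate peak with a summit within 200 bp. Promoters are within 500 bp of a TSS, and words were searched within 100 bp. The pair-rule gene h is listed as hry in the annotation. Locus pairs were compared by an exact sign-flip permutation over replicates, for 6 pairs only since eve lacks a value in replicate 3. The counting was tested on simulated peaks.

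The members and the comparison lists were chosen with earlier results of these data known. All 10 members are named, with each other gene nearest to a summit of theirs and all genes of the list of other segmentation genes. Alternatives were other flanks, lists, distances, word windows and scalings, and leaving out each replicate. The labels call the replicates biological and say no more about how they were collected.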

Additional observations from a re-analysis of the deposited data

How the results depend on the processing

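The count of 30 optimal summits depended on the flank and the list, being 10 with a flank of 0 bp and 17 with 1 kb, 9 in the list's higher-scoring part, 9 among peaks strong in all 3 replicates and 108 in the permissive list called on all replicates together. It was 11 to 14 when support in both other replicates was asked for, leaving out each replicate in turn, a rule that keeps 67.6%, 65.3% and 66.5% of all summits without replicate 1, 2 and 3. The density of 121 per Mb stayed between 117 and 181 with flanks of 0 to 20 kb and was 36.4 in that higher-scoring part. The 8 bound members were 4 to 7 without 1 replicate. Summits supported by all 3 replicates were 9 of 30 in the main count and 19 with the full replicate lists, which include background. The share of all summits under that second rule is not given here. With the median over the 5000 highest-scoring peaks the highest relative score was 0.458 at slp1-slp2, 0.937 at odd-drm-sob, 0.987 at en-inv and 0.984 at eve, and the order of the 4 loci with 3 values was kept. Without replicate 1, 1 of these 4 kept its place, and without replicate 2, 2 did. The share of summits with GAGAG was 46.7% with 50 bp on each side (28.5% of all summits), 86.7% with 250 bp (64.1%) and 6.67% for GAGAGAGA. One window per locus, an alternative chosen after seeing the data like the next, gave 33 summits, and summits nearest to a member TSS gave 21, 76.2% of them with GAGAG. No paired analysis was possible because there is 1 group, so no groups share replicate numbers, and only loci were compared within replicates. Depth is not given, so a missing call may be a lack of reads.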
